A study of Mus musculus with 38 samples.

Results

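The cells described here are the 2372 cells of day 7 of JGES reprogramming with BMP4 that carry the deposited annotation ParE. They make up 20.9% (95% interval 20.2 to 21.7) of the 11335 cells of the BMP4+ sample, and both single-cell samples together hold 20020 cells. The other cells of the BMP4+ sample are annotated as intermediate state (7125 cells), endothelial cells (1453) and placenta-like cells (385). Parietal endoderm is one reading of this label, and that is a cell type that the study keeps apart from its primitive endoderm cell-like cells (PrECLCs), so the cells are called ParE cells here and the label is checked against its markers below.

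Mouse embryonic fibroblasts (MEFs) of E13.5 embryos, from crosses of OG2 and 129S4/SvJaeJ mice and taken regardless of sex, were infected with retroviruses (pMXs vectors) that carry *Jdp2*, *Glis1*, *Esrrb* and *Sall4* (JGES), and cultured in iCD3 medium with vitamin C, mLIF, bFGF, CHIR99021, SGC0946, an LSD1 inhibitor and Y27632. The BMP4+ cells received 10 ng/ml BMP4 for 7 days, and the BMP4− cells received the same medium without it. Bulk libraries were made from JGES cells at days 0 to 7, from cells with JGE, JGEO or JGESO (without *Sall4*, or with *Oct4*) at day 7, and from MEFs with SALL4-WT or SALL4-delN12 alone, a form without its N-terminal 12 residues. The study asked which fate BMP4 diverts reprogramming to.

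Every condition has 1 sample, and cells of 1 sample are not replicates of the treatment. No test between groups was therefore made. The intervals given are exact Poisson intervals for sums of UMIs (unique molecular identifiers, the counted transcripts) and exact binomial (Clopper-Pearson) intervals for shares of cells, at the 95% level, and they cover counting error only. The ParE cells held 61433570 UMIs, with a median of 23772.5 UMIs and 4899.5 genes per cell (range 7118 to 74470 UMIs) and a median of 2.06% mitochondrial UMIs. Endothelial cells had a median of 21763 UMIs, placenta-like cells of 28906 and intermediate cells of 19594. Both samples shared 2 barcodes, none of them of a ParE cell. Levels are UMIs of a gene among all UMIs of the cells with an annotation, scaled to counts per 1e6 (CPM). Since the annotation was made from the same counts, every comparison of ParE cells with other cells is a description.

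Primitive endoderm is the epithelium that lines the cavity of the blastocyst next to the epiblast, and it is known for the transcription factors GATA6, GATA4 and SOX17. It gives rise to visceral endoderm, which takes up and secretes serum proteins around the embryo, and to parietal endoderm, which lays down the thick laminin and collagen IV sheet called Reichert's membrane. Both descendants share much of the transcription factor set, and they differ in the proteins they secrete and in their adhesion.

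All 6 genes that mark PrE-like cells were highest in ParE cells. *Gata4*, a zinc finger factor of PrE, stood at 78.3 CPM (76.1 to 80.5) in ParE cells and at 1.20, 3.20 and 1.55 CPM in endothelial, placenta-like and intermediate cells. *Sox17*, an HMG box factor of endoderm, stood at 263 CPM in ParE cells and at 37.3, 31.1 and 4.69 CPM in the others in that order. *Pitx1*, a homeobox factor, stood at 442 CPM in ParE and at 38.8, 59.9 and 10.8 CPM in the other annotations in the same order. The gap was smallest for these last markers, with a log2 ratio over the highest other annotation of 2.82 for *Sox17* and 2.88 for *Pitx1*. *Pth1r*, the receptor for parathyroid hormone and its related peptide and a known gene of parietal endoderm, stood at 259 CPM against 5.24, 8.92 and 5.59 CPM. *Dab2*, a clathrin adaptor, stood at 433 CPM against 6.24, 9.85 and 12.4 CPM. *Cubn*, which encodes the endocytic receptor cubilin, stood at 107 CPM against 1.60, 3.45 and 2.25 CPM.

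**Figure D1:**
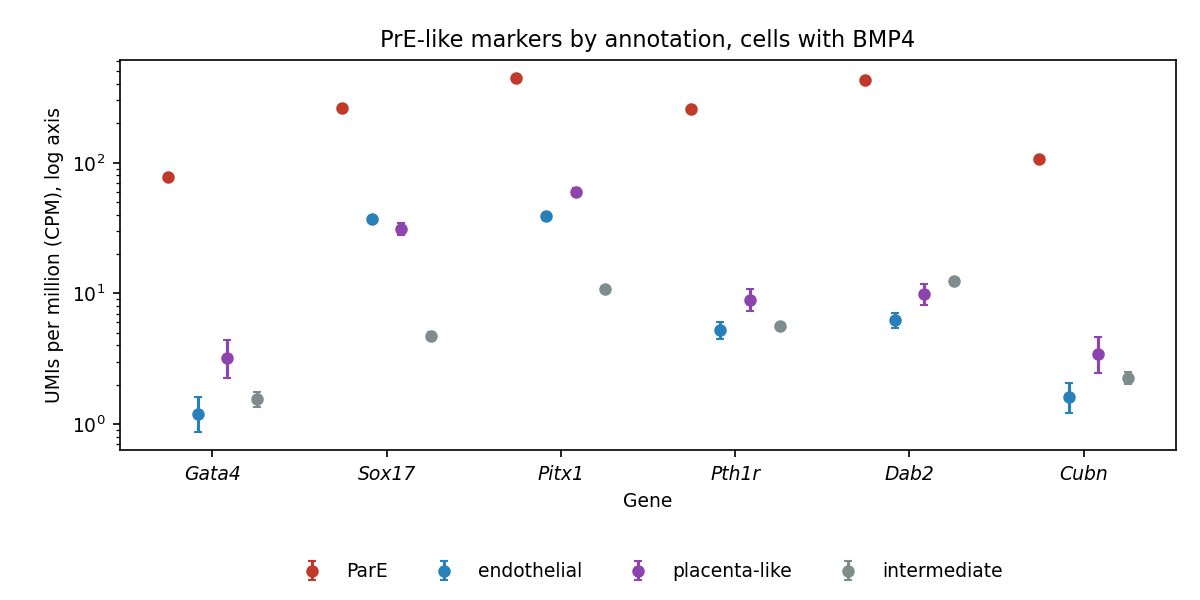
Level of the 6 PrE-like markers in the BMP4+ sample, in CPM on a log axis, for the cells of each annotation. Points are sums over cells, and bars are exact 95% Poisson intervals (counting error only). ParE cells are highest for every marker, and *Sox17* and *Pitx1* have the smallest gap to the next annotation (log2 ratios of 2.82 and 2.88).

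The markers were carried by most single cells with this label. To compare shares at 1 depth, each cell was thinned to 6000 UMIs, which left out 0 ParE cells. A *Gata4* UMI was then found in 37.1% (35.2 to 39.1) of ParE cells and in 0.730% of intermediate cells, which carry fibroblast genes. The share in intermediate cells is given as a background for each marker. Bulk JGES cells at day 0 also held RNA of *Gata4*, *Dab2* and *Pitx1*, and the part of free RNA in this background was not tested. The same shares were 70.6% and 1.98% for *Sox17*, with 15.8% of endothelial cells. *Pth1r* was found in 70.5% of ParE and 2.85% of intermediate cells, *Dab2* in 72.1% and 5.70%, *Cubn* in 34.3% and 1.32%, and *Pitx1* in 61.7% and 3.05%. At full depth the shares of ParE cells were 77.9% for *Gata4*, 93.6% for *Sox17*, 92.2% for *Pth1r*, 88.2% for *Dab2*, 59.7% for *Cubn* and 74.9% for *Pitx1*. *Sox17* was thus the marker found in most cells at full depth, and *Cubn* the one found in fewest.

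Of the 2372 ParE cells, 2256 (95.1%) had a UMI of at least 3 of the 6 markers, 854 (36.0%) of all 6 and 9 (0.379%) of none. Outside the label, 163 of 7125 intermediate cells (2.29%), 54 of 1453 endothelial cells (3.72%) and 26 of 385 placenta-like cells (6.75%) reached 3 markers. Counted from the markers instead of from the label, 2499 cells of the sample had at least 3 markers, and 90.3% of these were labelled ParE. Markers of another annotation were present too. At least 3 of 6 endothelial, placenta-like or fibroblast markers (the last set from intermediate cells, such as *Col1a1* and *Pcolce*) were found in 237 ParE cells (9.99%), with 156 for the fibroblast markers, 64 for the endothelial and 43 for the placenta-like ones. No doublet caller was run, and the part that cells captured together have in these cells was not tested. The macrophage genes *Ptprc* and *C1qa* were at 0 CPM in ParE cells, and the 6 macrophage markers summed to 1.90 CPM against 55.2 CPM in endothelial cells.

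Of the 20695 genes of the table, 12545 had at least 1 CPM in the mean of the 4 annotations and were compared. Against all other BMP4+ cells, 1112 genes (8.86%) were at least 2-fold higher in ParE cells and 2433 (19.4%) at least 2-fold lower, with a median log2 ratio of 0.04, and with the other annotations weighted equally 670 were higher. Against single annotations, 1372 genes (10.9%) were higher and 1167 (9.30%) lower than in endothelial cells, 1087 (8.66%) and 1404 (11.2%) than in placenta-like cells, and 1656 (13.2%) and 2462 (19.6%) than in intermediate cells. Higher than in each of the 3 other annotations were 367 genes (2.93%), and lower than in each were 315 (2.51%). Since intermediate cells hold most of the other cells, the pooled ratio follows them, and levels in every annotation are given below.

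The leading genes are the 30 with the largest ratio of ParE over the highest other annotation among genes found in at least 10% of ParE cells, so their ratios describe the choice. *Clps*, which encodes the pancreatic lipase cofactor colipase, led the set. It had 15.9 CPM in ParE and 0.143, 0.168 and 0.205 CPM in endothelial, placenta-like and intermediate cells. Its log2 ratio was 6.28 over intermediate cells, which had the highest other level. The ratio that ranked it was 5.98, over placenta-like cells. Their 2 UMIs were raised to the floor on UMIs, so that floor sets this value. *Ppp1r17*, an inhibitor of protein phosphatases, followed with 82.0 CPM against 1.17, 1.94 and 0.782 CPM. *Apom*, an apolipoprotein of high-density lipoprotein, had 42.3 CPM against 0.315, 1.01 and 0.578 CPM. The protease inhibitor *Spink1* was the most abundant gene of the set, with 446 CPM (441 to 452) against 10.4, 12.1 and 7.04 CPM. Markers of the label are in the set too, namely *Dab2*, *Cubn*, *Pth1r* and *Gata4*, and so is *Hnf4a*, a nuclear receptor of liver and visceral endoderm, with 11.7 CPM against 0.286, 0.253 and 0.422 CPM.

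Several leading genes encode proteins that are secreted into blood plasma. *Igfbp1*, which binds insulin-like growth factors, had 88.8 CPM in ParE and 1.43, 2.95 and 0.764 CPM elsewhere. *Lect2*, a secreted chemotactic factor of liver, had 48.7 CPM against 0.859, 2.61 and 0.832 CPM. Beside these stood *Habp2*, a plasma serine protease (37.9 CPM), *Cpn1*, a carboxypeptidase N subunit (23.1 CPM), *Gc*, the vitamin D-binding protein (9.46 CPM), and *F2*, prothrombin (8.17 CPM), none of them above 1.52 CPM in another annotation. *Fabp1* and *Fabp2*, which bind fatty acids inside cells, stood at 10.2 and 5.36 CPM, and *Klb*, the co-receptor for endocrine FGFs, stood at 30.9 CPM. *Hkdc1*, a protein of the hexokinase family (23.6 CPM), *Dpp4*, a membrane-bound peptidase (88.8 CPM), *Pnoc*, the precursor of nociceptin (28.8 CPM), *Spock1*, a proteoglycan (7.67 CPM), *Ugt2b34*, a glucuronosyltransferase (5.68 CPM), *B4galnt2*, a glycosyltransferase (5.01 CPM), *Egflam*, a matrix protein (11 CPM), *Gtf2a1l*, a relative of a TFIIA subunit (6.19 CPM), *Fn3k*, a fructosamine kinase (8.27 CPM) and *Rarres1*, a retinoic acid-responsive gene (7.11 CPM), are further genes of the set. *Rarres1* is the last gene inside (log2 ratio 4.21), and *Abcc2* (4.14), *Fgfr4* (4.03), *Mamld1* (4.02) and *Fst* (4.01) are the next outside.

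**Figure D2:**
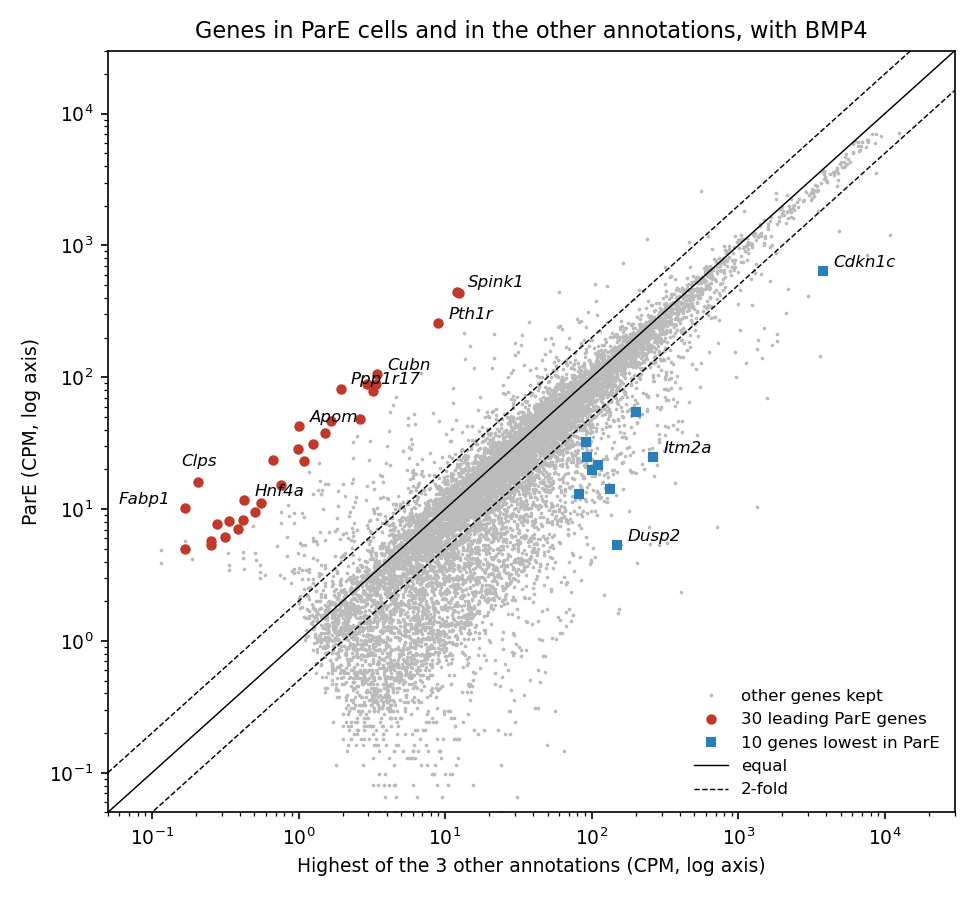
Each of the 12545 genes compared, with its level in ParE cells (vertical, CPM, log axis) against its level in the highest of the 3 other annotations (horizontal, CPM, log axis). Red circles are the 30 leading genes and blue squares the 10 genes lowest in ParE, the solid line is equality and the dashed lines are 2-fold. *Spink1* has 446 CPM in ParE cells and 12.1 CPM in the highest other annotation, and *Cdkn1c* has 641 and 3793 CPM.

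Promoters of 22 of the 30 leading genes were matched by symbol to RefSeq promoter entries of build GRCm38.p6, with the first entry taken where a gene has several, each 250 bases before to 50 after a gene's start. The letters GTTAAT on either strand were in 7 of the 22 (31.8%; further entries of *Dab2* and *Hnf4a*, not counted, hold them too), in 3.90% of 9769 promoters of the genes compared and in 7.22% of all 27025 promoters. AGATAA, which GATA factors are known to bind, was in 13.6%, 6.16% and 11.4%, and ACAAT, a core of SOX sites, in 45.5%, 19.6% and 31.5%. None of these motifs contains another, all are rich in A and T, and the median GC content was 48.7% in the 22 leading promoters, 61.3% in those of the genes compared and 52.7% in all. The part of base composition in these shares was not tested. Shown are the 5 promoters in which the letters begin 52 to 78 bases before the start, with the match in capitals. They belong to *Igfbp1* (chr11:7197537-7197836, plus strand), *Lect2* (chr13:56548489-56548788, minus strand), *Habp2* (chr19:56287662-56287961, plus strand), *Cpn1* (chr19:43986471-43986770, minus strand) and *Gc* (chr5:89457849-89458148, minus strand).
Igfbp1: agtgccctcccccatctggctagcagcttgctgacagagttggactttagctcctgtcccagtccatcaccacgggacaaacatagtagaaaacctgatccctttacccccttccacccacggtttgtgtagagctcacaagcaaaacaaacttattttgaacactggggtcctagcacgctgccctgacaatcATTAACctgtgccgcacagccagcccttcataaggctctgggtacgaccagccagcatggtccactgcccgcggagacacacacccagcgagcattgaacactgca
Lect2: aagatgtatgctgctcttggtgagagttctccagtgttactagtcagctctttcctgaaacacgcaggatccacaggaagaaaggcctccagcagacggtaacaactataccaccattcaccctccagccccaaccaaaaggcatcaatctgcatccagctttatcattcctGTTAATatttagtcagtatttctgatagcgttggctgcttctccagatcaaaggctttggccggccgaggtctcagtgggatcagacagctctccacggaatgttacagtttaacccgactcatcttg
Habp2: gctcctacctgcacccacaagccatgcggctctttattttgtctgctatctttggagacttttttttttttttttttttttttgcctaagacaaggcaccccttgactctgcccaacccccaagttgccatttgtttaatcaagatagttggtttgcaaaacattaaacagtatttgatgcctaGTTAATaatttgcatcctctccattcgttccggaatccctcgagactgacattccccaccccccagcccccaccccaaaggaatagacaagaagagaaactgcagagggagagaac
Cpn1: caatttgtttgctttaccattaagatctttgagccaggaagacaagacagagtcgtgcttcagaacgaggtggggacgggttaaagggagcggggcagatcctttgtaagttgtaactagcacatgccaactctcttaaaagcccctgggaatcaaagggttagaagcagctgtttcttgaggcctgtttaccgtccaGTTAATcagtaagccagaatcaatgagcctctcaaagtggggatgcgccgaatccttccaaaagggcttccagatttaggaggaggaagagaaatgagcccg
Gc: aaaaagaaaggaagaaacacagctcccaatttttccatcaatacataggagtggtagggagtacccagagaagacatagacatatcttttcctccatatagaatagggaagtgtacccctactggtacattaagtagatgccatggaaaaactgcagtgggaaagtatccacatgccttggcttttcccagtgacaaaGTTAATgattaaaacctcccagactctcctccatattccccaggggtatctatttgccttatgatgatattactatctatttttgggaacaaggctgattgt
The match is 56 bases before the start in *Igfbp1*, 78 in *Lect2*, 66 in *Habp2* and 52 in *Cpn1* and *Gc*. A match describes the letters only and is not a site shown to be bound.

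Among transcription factors of endoderm that passed the limit of 1 CPM, most were higher in ParE cells. That limit is on the mean of the 4 annotations, so a gene can pass it through ParE cells alone, as *Hnf4a* did. Of 20 genes, which include the markers *Gata4*, *Sox17* and *Pitx1*, 14 passed the limit of 1 CPM, and 10 of these were at least 2-fold higher and 1 lower than in all other cells, beside 8.86% and 19.4% of all genes, with a median log2 ratio of 3.82 (3.01 without the limit). *Gata6*, which acts at the start of PrE formation, had 74.4 CPM in ParE and 25.5, 6.99 and 8.75 CPM in endothelial, placenta-like and intermediate cells. *Foxa2*, a forkhead factor of endoderm, had 61.7 CPM against 4.35, 4.38 and 2.56 CPM. *Foxa3*, its relative, had 12.9 CPM against 0.945, 1.26 and 0.416 CPM. *Foxq1*, another forkhead factor, had 177 CPM against 15.4, 32.9 and 16.9 CPM. These factors were higher in ParE than in each other annotation.

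A few factors of the list were highest in endothelial cells instead. *Hhex*, a homeobox factor of endoderm and of blood vessels, had 15.7 CPM in ParE and 54.2 in endothelial cells, against 4.88 and 1.78 CPM in placenta-like and intermediate cells. *Sox7*, a factor of both PrE and endothelium, had 21.8 CPM in ParE and 78.6 in endothelial cells, against 4.63 and 2.99 CPM. *Sox18*, an endothelial relative of *Sox17*, had 2.90 CPM in ParE and 85.1 in endothelial cells. *Otx2*, *Lhx1* and *Gsc*, factors of the anterior visceral endoderm, were below the limit of 1 CPM in the mean.

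**Figure D3:**
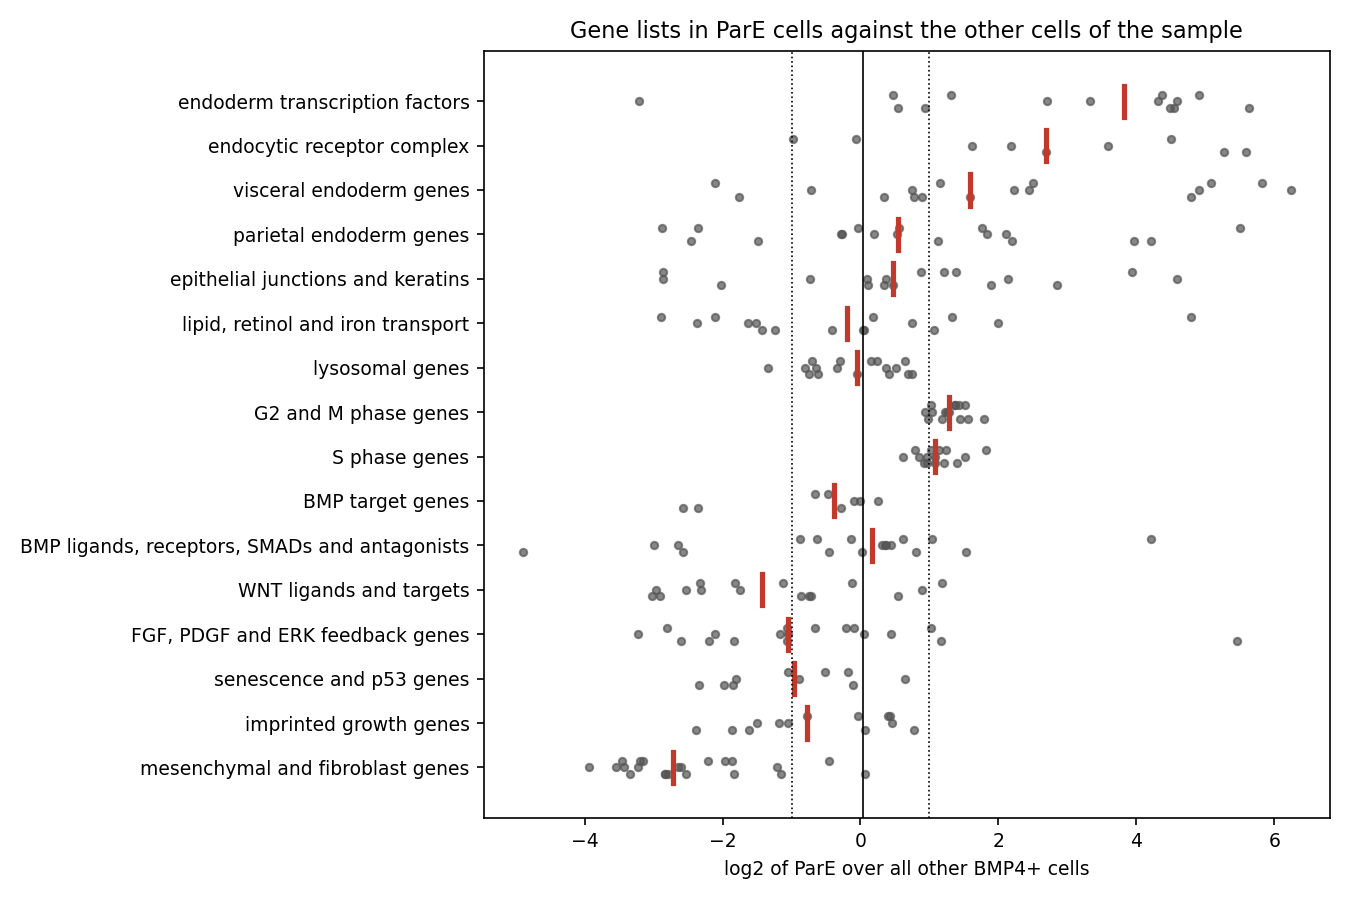
Log2 ratio of ParE over all other BMP4+ cells for the genes of each list drawn, 1 grey point per gene above 1 CPM. Red bars are the medians of the lists, the solid line is the median of all genes (0.04) and the dotted lines are 2-fold. The endoderm transcription factors have a median of 3.82 and the mesenchymal genes of −2.71.

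Most of the machinery for protein uptake was higher. Visceral endoderm and kidney tubules are known to take up proteins through cubilin, its partner amnionless and megalin. Of 9 genes of this endocytic complex, 7 were at least 2-fold higher than in the other cells and none lower, beside 8.86% and 19.4% of all genes, with a median log2 ratio of 2.69. The markers *Cubn* and *Dab2* are among the 7 and restate the label. *Amn*, which encodes amnionless, had 208 CPM in ParE and 33.3, 17.5 and 13.9 CPM in endothelial, placenta-like and intermediate cells. *Lrp2*, which encodes megalin, had 156 CPM against 3.55, 31.5 and 5.78 CPM. *Lrpap1*, the chaperone of megalin, had 492 CPM against 44.0, 56.5 and 126 CPM. *Myo6*, a motor that moves endocytic vesicles, had 181 CPM against 25, 14.3 and 29.9 CPM, and *Clcn5*, a chloride exchanger of endosomes, had 199 CPM against 41.0, 69.4 and 69.6 CPM. The 2 members that did not pass the limit were *Gipc1* (56.6 CPM against 55.4 to 85.4 CPM) and *Fcgrt* (3.14 CPM against 1.52 to 6.56 CPM). For the degradative end of the route the result depended on the cells compared. Of 17 lysosomal genes, none was 2-fold higher and 1 lower than in all other cells (beside 8.86% and 19.4% of all genes), with a median of −0.06, while 5 were higher and none lower both than in endothelial cells (beside 10.9% and 9.30%, median 0.76) and than in placenta-like cells (beside 8.66% and 11.2%, median 0.26).

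Genes known for parietal endoderm, most of them of its basement membrane, differed among themselves. Of 18 genes, 8 were at least 2-fold higher and 4 lower than in the other cells, beside 8.86% and 19.4% of all genes, with a median log2 ratio of 0.54, and the marker *Pth1r* is one of the 8. *Lama1*, the laminin chain of Reichert's membrane, had 213 CPM in ParE and 21.6, 20.4 and 11.4 CPM in endothelial, placenta-like and intermediate cells. *Lamb1*, its partner chain, had 196 CPM against 35.2, 39.2 and 48.2 CPM. *Col4a1*, a collagen IV chain, had 1171 CPM against 626, 148 and 182 CPM, so that endothelial cells came closest. *Fst*, which encodes the activin antagonist follistatin, had 217 CPM against 3.26, 13.0 and 13.5 CPM. *Sparc*, a matrix protein abundant in parietal endoderm, had 2239 CPM against 671, 528 and 1823 CPM and did not pass the limit.

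Other genes known for parietal endoderm were low or no higher than elsewhere. *Thbd*, which encodes thrombomodulin, had 0.537 CPM in ParE, 3.26 in endothelial and 1.22 in intermediate cells. *Plat*, the tissue plasminogen activator, had 6.54 CPM against 3.55, 3.96 and 9.11 CPM. *Snai1*, a repressor of epithelial genes, had 4.43 CPM against 14.2, 7.66 and 27.6 CPM. *Nid1*, a linker of laminin and collagen IV, had 14.5 CPM against 34.8, 47.6 and 84.3 CPM. Of the parietal genes named here, *Pth1r*, *Lama1*, *Lamb1*, *Fst*, *Col4a1* and *Sparc* were highest in ParE cells. For *Col4a1* and *Sparc* the gap to the next annotation was less than 2-fold. *Snai1* and *Nid1* were lowest in ParE cells, *Thbd* was below endothelial and intermediate cells, and *Plat* lay between the other annotations. The label read as parietal endoderm is thus met by part of the list only.

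Genes of visceral endoderm were present in the same cells. Of 22 genes, 17 passed the limit of 1 CPM, and 10 of these were at least 2-fold higher and 2 lower, beside 8.86% and 19.4% of all genes, with a median log2 ratio of 1.59 (0.84 with a limit of 5 CPM). *Ihh*, the hedgehog ligand of visceral endoderm, had 48.9 CPM in ParE and 0.887, 5.56 and 1.26 CPM in endothelial, placenta-like and intermediate cells. *Rbp4*, which carries retinol in plasma, had 107 CPM against 2.12, 6.82 and 4.04 CPM. *Afp*, the alpha-fetoprotein of yolk sac, had 10.9 CPM against 0.716, 1.18 and 4.42 CPM. *Apoe*, an apolipoprotein made by many cell types, had 1831 CPM against 738, 279 and 1088 CPM and did not pass the limit. *Ttr*, transthyretin, had 220.0 CPM against 164 CPM in intermediate cells and at most 24.7 CPM in the others.

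Other serum proteins of yolk sac were absent from the counts or lower than elsewhere. *Alb* had no UMI in any of the 2372 ParE cells, which limits cells with a UMI to a share of at most 0.155%. *Trf*, the iron carrier of serum, had 8.74 CPM in ParE against 44.1, 18.1 and 38.0 CPM, and *Cer1*, a marker of anterior visceral endoderm, was below the limit of 1 CPM.

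ParE cells were epithelial in part of the genes known for junctions and keratins, and shared these with placenta-like cells. Of 17 genes, 7 were at least 2-fold higher and 3 lower than in all other cells (beside 8.86% and 19.4% of all genes), while 2 were higher and 8 lower than in placenta-like cells (beside 8.66% and 11.2% of all genes). *Cldn6*, a tight junction protein of embryonic epithelia, had 100.1 CPM in ParE and 1.55, 26.7 and 3.07 CPM in endothelial, placenta-like and intermediate cells. *Epcam*, an epithelial adhesion protein, had 206 CPM in ParE and 281 in placenta-like cells, against 25.4 and 34.0 CPM. *Krt8*, a keratin of simple epithelia, had 359 CPM in ParE and 995 in placenta-like cells, against 48.5 and 93.2 CPM. *Cldn3*, *Cldn4* and *Krt7* were the 3 lower genes, at 2.25, 4.36 and 1.03 CPM in ParE and at 121, 83.5 and 43.8 CPM in placenta-like cells.

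The fibroblast programme of the starting cells was low. Of 22 mesenchymal genes, none was 2-fold higher and 20 were lower than in all other cells (beside 8.86% and 19.4% of all genes), with a median log2 ratio of −2.71, but the contrast was with intermediate cells. Against endothelial cells 3 were higher and 5 lower (beside 10.9% and 9.30% of all genes), with a median of −0.03. *Col1a1*, a chain of collagen I, had 21.8 CPM in ParE and 281 CPM in intermediate cells, with 18.5 and 19.9 CPM in endothelial and placenta-like cells. *Fn1*, fibronectin, had 164 CPM in ParE and 1342 in endothelial cells, against 196 and 466 CPM. The Hox genes, which keep the positional memory of fibroblasts, were lower against the same cells. Of 25 Hox genes, none was higher and 15 were lower than in all other cells (beside 8.86% and 19.4% of all genes), with a median of −1.55. Their medians were −0.18 against endothelial and 0.47 against placenta-like cells. Without the 237 ParE cells that carry markers of another annotation, the mesenchymal median was −3.72. Of these cells 156 carried at least 3 fibroblast markers, so a lower median follows from the choice and nothing is read from it.

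Among signalling genes, none of 8 BMP targets was 2-fold higher and 2 were lower than in the other BMP4+ cells, close to the 8.86% and 19.4% of all genes. *Id1*, a direct target of BMP SMADs, had 469 CPM in ParE and 391.9, 355 and 629 CPM in endothelial, placenta-like and intermediate cells. *Bambi*, a decoy receptor that dampens BMP signalling, had 64.6 CPM against 150.3, 98.1 and 385 CPM. *Smad9*, a BMP SMAD, was one of 3 genes of 18 that were higher among ligands, receptors, SMADs and antagonists, with 11 CPM against 0.572, 1.85 and 4.66 CPM. *Grem1*, an antagonist of BMPs, was lower, with 0.570 CPM against 21.8 CPM in intermediate cells.

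Of the FGF and PDGF genes, 3 of 18 were higher and 10 lower than in all other cells (beside 8.86% and 19.4% of all genes), with a median of −1.05. The medians were −0.12 against endothelial, 0.63 against placenta-like and −1.02 against intermediate cells. *Fgfr4*, a receptor that pairs with *Klb*, had 19.3 CPM in ParE and 0.315, 1.18 and 0.410 CPM in endothelial, placenta-like and intermediate cells. *Pdgfra*, a receptor known for PrE, had 113 CPM against 28.1, 23.7 and 57.2 CPM. *Fgfr1* had 23.8 CPM against 25.8, 107 and 128 CPM. Of the WNT genes, 1 of 16 was higher and 9 lower than in all other cells (beside 8.86% and 19.4% of all genes), with a median of −1.43. The median was 0.26 against endothelial, −1.10 against placenta-like and −1.34 against intermediate cells. *Wnt6*, a ligand, had 40.9 CPM against 379 CPM in intermediate and 137 CPM in placenta-like cells, and *Wnt11*, the higher one, had 24.9 CPM against 7.24, 3.20 and 12.4 CPM. Of 7 Nodal and activin genes, 1 was higher and 4 lower than in all other cells (beside 8.86% and 19.4% of all genes). The median was 0.79 against endothelial, −0.05 against placenta-like and −1.43 against intermediate cells. *Inhba*, an activin chain, had 0.781 CPM against 11.2 CPM in intermediate cells, in contrast to the activin antagonist *Fst* above.

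ParE cells had more RNA of the cell cycle than intermediate cells and about as much as the other annotations. Of 15 S phase genes, 9 were at least 2-fold higher than in all other cells, and of 15 G2 and M phase genes 13, with none lower (beside 8.86% and 19.4% of all genes) and medians of 1.08 and 1.29. Against intermediate cells 14 and 15 were higher (beside 13.2% of all genes), and against endothelial cells 0 and 0 (beside 10.9%). *Mki67*, a proliferation marker, had 187 CPM in ParE and 152, 164 and 61.4 CPM in endothelial, placenta-like and intermediate cells. *Cdkn1a*, a cell cycle inhibitor and p53 target, had 157 CPM against 259, 227 and 954 CPM. *Cdkn1c*, an imprinted cell cycle inhibitor, had 641 CPM against 3793, 1763 and 2056 CPM and was among the 10 genes lowest in ParE. The others of these 10 were *Itm2a*, *Slc30a2*, *Dusp2*, *Capg*, *Phlda3*, *Arid3a*, *Litaf*, *Itga6* and *Rgcc*, of which *Itm2a* (24.6 CPM against 140.1 to 262 CPM) and *Dusp2*, a MAP kinase phosphatase (5.34 CPM against 20.5 to 148 CPM), are examples.

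Further imprinted genes differed between the annotations. *Mest* had 70.0 CPM in ParE and 1574 in endothelial cells, and *Phlda2*, which restrains growth of the placenta, had 144 CPM in ParE and 3599 in placenta-like cells. Of 13 imprinted genes, none was 2-fold higher in ParE than in all other cells and 6 were lower (beside 8.86% and 19.4% of all genes), and the median against intermediate cells was 0.40.

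Pluripotency genes were mixed. Of 11, 5 were at least 2-fold higher and 3 lower than in all other cells, beside 8.86% and 19.4% of all genes, with a median of 0.32 that was −0.28 when genes below 1 CPM were kept in and 1.54 with a limit of 5 CPM, and their summed level was 429.9 CPM in ParE against 183 to 229.7 CPM elsewhere. *Lin28a*, an RNA-binding protein of early cells, had 118 CPM in ParE and 21.0, 20.8 and 10.0 CPM in endothelial, placenta-like and intermediate cells. *Tdh*, a threonine-degrading enzyme of mouse ES cells, had 165 CPM against 11.8, 12.7 and 70.0 CPM. *Nanog*, the epiblast factor, had 0.0977 CPM. Of the delivered factors, whose viral and endogenous RNA cannot be told apart in these counts, *Sall4* had 149 CPM in ParE and 32.8, 48.0 and 25.7 CPM in endothelial, placenta-like and intermediate cells. *Esrrb* had 3.0 CPM against 21.7, 3.79 and 23.9 CPM, *Jdp2* had 15.7 CPM against 68.0, 17.1 and 117 CPM, and *Glis1* had 1.30 CPM against 0.487, 2.36 and 1.75 CPM. *Sall4* was thus the only delivered factor that was highest in ParE cells.

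ParE cells were not uniform. Leiden clustering of the ParE cells alone at resolution 0.5 gave 6 groups of 726, 652, 480, 298, 189 and 27 cells, and their leading genes describe the clustering. Group 3 had the highest levels of the 4 receptor and adaptor genes of protein uptake and of several serum genes, while *Igfbp1* was highest in group 2 and *Rbp4* and *Afp* in group 5. *Cubn* had 258 CPM in group 3 and 9.44 to 74.4 CPM in the others, *Amn* 489 CPM against 53.4 to 173 CPM, and *Apom* 125 CPM against 2.36 to 27 CPM. *Ttr* had 578 CPM in group 3 and 254 CPM in group 4, the next highest. *Aqp3*, a water and glycerol channel, was among its leading genes with 90.9 CPM against 14.9 CPM in the other ParE cells. Together the 22 visceral genes summed to 6436 CPM in group 3 and 1461 to 2185 CPM in the other groups.

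Group 2 had the most RNA of the parietal list, 7552 CPM in sum against 3336 to 6473 CPM. *Pitx1* had 1049.7 CPM in group 2 with a UMI in all of its cells, 680 CPM in group 5 and 186 CPM in group 1. *Pth1r* had 419 CPM in group 2 and 40.1 to 288 CPM in the others, and *Col4a1* 1694 CPM against 309 to 1338 CPM. *Igfbp1* was the most uneven leading gene, with 250 CPM in group 2, 104 in group 3, 3.35 in group 1 and 0 in group 6. *Lgals7*, a galectin, and *Tnnc1*, a troponin C, led group 2. Group 1 had more *Hhex* (28.6 CPM against 4.06 CPM in group 2) and *Lama1* (310 CPM) than any other group, and *Asns*, asparagine synthetase (222 CPM against 79.1 CPM in the other ParE cells), was among its leading genes. *Gata4* was more even across the 3 large groups than *Igfbp1* and the factors *Pitx1* and *Hhex*, with 88.0, 101 and 81.4 CPM in groups 1, 2 and 3.

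The 6 PrE-like markers summed to 925, 1212 and 349 CPM in groups 4, 5 and 6 and to 1304, 2368 and 1883 CPM in groups 1, 2 and 3. Group 4 had a median of 37249 UMIs per cell, the highest of all groups, the most *Col1a1* of the 6 groups (94.7 CPM against 3.99 to 5.52 CPM in groups 1 to 3) and 308 CPM of summed fibroblast markers. Its leading genes were *Il11*, *Stc1*, *Iapp*, *Dcpp3* and *Krt71*, and *Iapp* and *Dcpp3* are genes that intermediate cells carry at 1699.8 and 1829 CPM. Group 5 was led by *Itga4*, an integrin chain, and *Sox3*, an HMG box factor, with 123 and 37.1 CPM against 4.44 and 2.04 CPM, and it had the most *Afp* (46.4 CPM). Group 6, of 27 cells, had 698 CPM of fibroblast and 146 CPM of endothelial markers beside 349 CPM of PrE-like markers. The part of cells captured together in groups 4 and 6 was not tested. Across the 2372 cells thinned to 1 depth, the visceral list correlated with the endocytic list (Pearson r = 0.40) and hardly with the parietal list (r = −0.14). These are cells of 1 library that share depth and free RNA, so the values are a description.

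**Figure D4:**
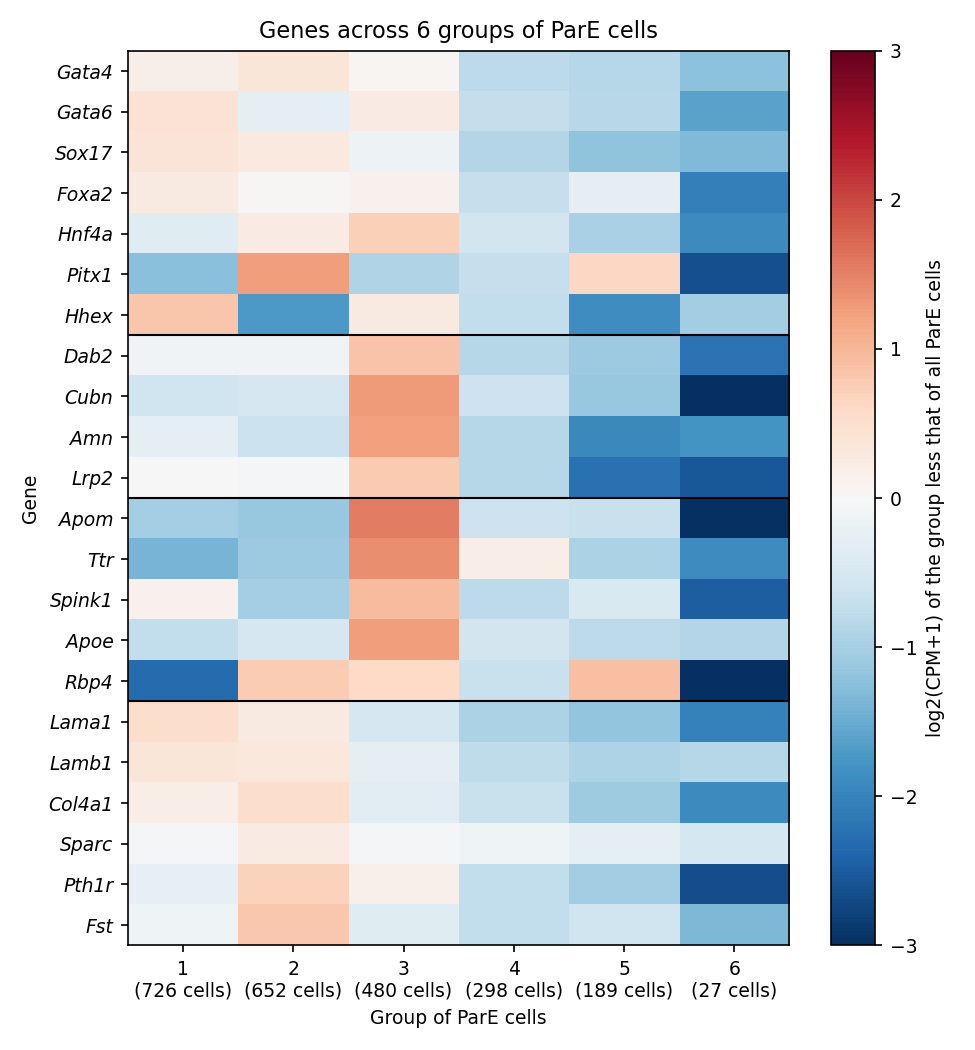
Difference of log2(CPM+1) between each of 6 groups of ParE cells and all ParE cells, for transcription factors, uptake genes, serum genes and matrix genes (blocks from top to bottom). Colours end at 3 and −3. The uptake genes, and the serum genes drawn other than *Rbp4*, are highest in group 3 (*Cubn* 258 CPM), and *Pitx1* in group 2 (1049.7 CPM).

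Cells labelled ParE were also present without BMP4, 142 of 8685 cells (1.64%, 1.38 to 1.92) with 1890270 UMIs and a median of 11562 UMIs per cell. Between the samples, 2834 genes (22.6%) were at least 2-fold higher with BMP4 in ParE cells and 693 (5.52%) lower, with a median log2 ratio of 0.40. The genes compared were kept for their level with BMP4, so genes below 1 CPM with BMP4 could not enter, and this limit favours the higher side. Taken relative to this median, 1406 were higher and 1224 lower. The samples also differ in cells of other labels. Of the 2834 higher genes, 1405 (49.6%) were also higher with BMP4 in intermediate cells, and of the 693 lower genes 260 (37.5%) were also lower. Library and treatment cannot be told apart with 1 sample each.

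Many of the largest differences went through the whole library. *mt-Co3*, a mitochondrial gene, had 40.3 CPM with and 9073 CPM without BMP4 in ParE cells, and 54.2 and 10389 CPM in intermediate cells. *Rps6*, a ribosomal protein, had 330.1 and 5999 CPM in ParE cells, and 295 and 5746 CPM in intermediate cells. *Atp6v0c*, a proton pump subunit, had 1172 and 1.06 CPM in ParE cells, and 949.9 and 2.06 CPM in intermediate cells. The same holds for *mt-Atp6*, *mt-Co2*, *mt-Nd3*, *Atp5g2*, *Rps12-ps3* and *AY036118*, all lower with BMP4 in both. *Ins2*, which encodes insulin, had 1208 and 18.0 CPM in ParE cells, and 10863 and 175 CPM in intermediate cells, and *Iapp*, *S100a6*, *Dcpp1*, *Dcpp2* and *Dcpp3* were likewise higher with BMP4 in both. What part of these in ParE cells is free RNA was not tested.

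Most markers of the label were within 2-fold between the samples. Of the 6 PrE-like markers 1 was at least 2-fold higher with BMP4 and none lower, beside 22.6% and 5.52% of all genes. The exception was *Pitx1*, with 442 CPM with and 74.1 CPM (62.3 to 87.4) without BMP4. *Pth1r*, with 259 and 130 CPM (log2 ratio 0.993), fell just short of the limit. *Gata4* had 78.3 and 59.8 CPM (49.3 to 71.9), *Dab2* had 433 and 353 CPM, *Cubn* had 107 and 69.8 CPM, and *Sox17* had 263 and 155 CPM. The median log2 ratio of the 6 markers was 0.68, beside 0.40 for all genes. The label was made from the counts of both samples, so nothing is read from how alike its markers are. Of the 30 leading genes 12 were higher and 2 lower, but they were chosen for their level in BMP4+ ParE cells, and nothing is read from this count. *Ppp1r17* had 82.0 CPM with BMP4 and 1 UMI (0.529 CPM) without, and *Apom* had 42.3 and 4.23 CPM. *Spink1* was lower with BMP4, with 446 and 1088 CPM. *Fst* had 217 and 31.7 CPM, *Rbp4* 107 and 22.7 CPM, and *Palm3*, a paralemmin, 117 and 7.41 CPM. In intermediate cells these had 13.5 and 11, 4.04 and 7.57, and 2.68 and 1.61 CPM. In endothelial cells they had 3.26 and 0.356, 2.12 and 1.31, and 2.92 and 0.356 CPM, where 0.356 CPM stands for 3 UMIs.

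Gene lists differed with BMP4 as follows. All 8 BMP targets were higher with BMP4 in ParE cells, with a median log2 ratio of 2.00, and the medians were 2.28 in intermediate and 2.54 in endothelial cells. *Id1* had 469 CPM with and 117 CPM without BMP4, and *Smad6*, an inhibitory SMAD, 43.4 and 4.76 CPM. Of 17 visceral genes 11 were higher and 2 lower, beside 22.6% and 5.52% of all genes. Their median was 1.76, against 1.18 in intermediate and 0 in endothelial cells. Their summed level differed less in ParE cells, with 2923 CPM with and 2250 CPM without BMP4, than in intermediate cells, with 1581 and 561 CPM. Of the 18 parietal genes 3 were higher and 3 lower, beside 22.6% and 5.52% of all genes, with a median of 0.06. Of the 11 pluripotency genes that passed the limit with BMP4, 1 was higher and 6 lower, with a median of −2.10, and members below it with BMP4, such as *Nanog*, are not among them. *Dppa5a*, a gene of mouse ES cells, had 16.6 CPM with and 809 CPM without BMP4 in ParE cells, and *Pou5f1*, which encodes OCT4, 4.43 and 196 CPM. In intermediate cells *Dppa5a* had 4.48 and 261 CPM and *Pou5f1* 2.26 and 54.4 CPM, and the BMP4− sample also held 1825 pluripotent cells. With BMP4 these genes were carried by few ParE cells. At resolution 1, a group of 58 cells had 638 CPM of *Dppa5a* and 134 CPM of *Pou5f1*, and the other ParE cells had 1.4 and 1.25 CPM. What part of the values is free RNA was not tested.

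Bulk RNA-seq gave the leading genes over time, in FPKM (fragments scaled to transcript length and library size) of 1 library per day and condition, at a depth that is unknown. In bulk, fewer cells of a type and less RNA per cell cannot be told apart. The genes were chosen from day 7 single cells with BMP4, so day 7 is not independent evidence of their direction. *Dab2* stood at 25.3 FPKM at day 0, in a library without BMP4. It then stood at 5.87, 3.29, 9.79 and 72.6 FPKM at days 1, 3, 5 and 7 with BMP4, and at 4.85, 2.62, 7.34 and 9.82 FPKM without. *Gata4* stood at 2.17 FPKM at day 0, then at 0.471, 0.481, 1.70 and 20.7 FPKM with BMP4 and at 0.963, 0.559, 3.23 and 10.3 FPKM without. *Igfbp1* was listed at 0 at day 0 and stood at 68.6 FPKM at day 7 with BMP4, and at or below 0.460 FPKM in every other JGES library. These genes were all highest at day 7 with BMP4, and *Gata4* was higher without BMP4 than with it at day 5.

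Differences of log2(FPKM+1) summarise the set. Between BMP4+ and BMP4−, the 30 leading genes had a median of 0.00 on days 1 and 3, −0.34 on day 5 and 0.93 on day 7. On day 1 only 6 of them were higher and 5 lower at all, and on day 3 8 and 10. The rest were listed at 0 FPKM in both conditions, so the medians of these days come from genes not detected. The shares of all genes below cover genes with at least 1 FPKM, a limit not set on the leading genes. On day 1 none was at least 1 higher on the log2 scale and none lower (2.84% and 4.03% of all genes), and on day 3 none and 1 (5.56% and 6.46%). At day 7, 13 of the 30 were at least 1 higher on the log2 scale and none lower, beside 8.91% and 9.62% of the 13782 genes with at least 1 FPKM, and at day 5, 1 was higher and 6 lower, beside 7.55% and 10.4%. Against day 0, 21 of 30 were higher and none lower at day 7 with BMP4 (14.6% and 8.37% of all genes), with a median of 2.18. *Ttr* at day 7 had 52.3 FPKM with and 1.56 FPKM without BMP4, and *Pitx1* 35.3 and 2.72 FPKM. *Gata6*, *Foxa2* and *Lama1* went the other way in bulk at day 7, with 7.00 and 12.1, 8.29 and 10.8, and 23.1 and 30.1 FPKM with and without BMP4.

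**Figure D5:**
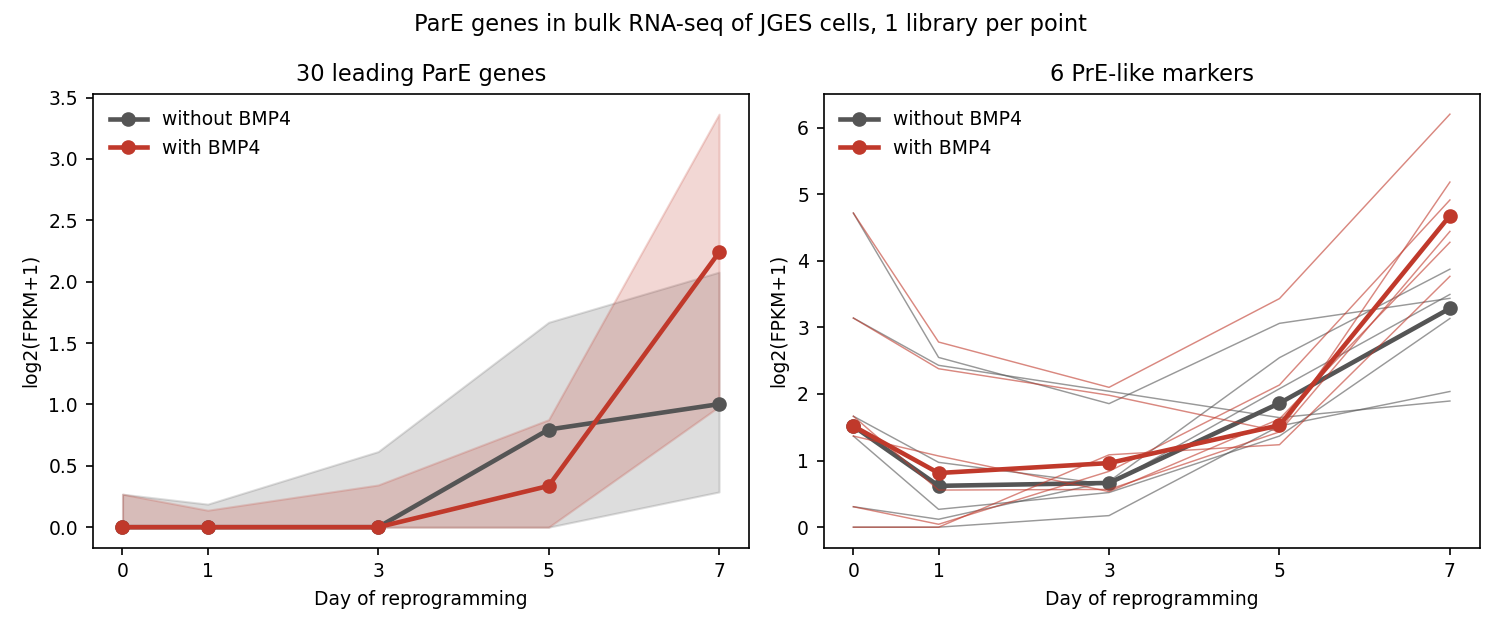
Log2(FPKM+1) in JGES bulk libraries by day, with BMP4 in red and without in grey, 1 library per point, for the 30 leading genes (left, median with the middle 50% of genes shaded) and the 6 PrE-like markers (right, thin lines are genes, thick lines medians). The medians of both sets are higher with than without BMP4 at day 7 and lower at day 5.

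In other factor sets the difference with BMP4 at day 7 was closer to 0, in a table that was normalised separately, and this contrast with JGES was not tested. In JGE and JGEO many leading genes were near 0 FPKM in both conditions, so their differences could hardly move. *Hkdc1* had 0.0132 FPKM without and 0 with BMP4 in JGE, and 0.0521 and 0.289 FPKM in JGEO. The shares of all genes again cover genes with at least 1 FPKM, a limit not set on the leading genes. The median of the 30 leading genes was −0.01 for JGE, 0.16 for JGEO and 0.13 for JGESO, and 0, 0 and 4 of 30 were higher, beside 3.70%, 1.78% and 4.25% of all genes, and 2, 1 and 2 lower, beside 4.04%, 1.41% and 2.83%. Levels in JGESO differed among the leading genes. *Gata4* was high in both conditions, at 75.2 FPKM without and 57.2 FPKM with BMP4, against 0.441 and 0.359 FPKM in JGE. *Lect2* (0.140 and 0.0942 FPKM in JGESO) and *Dpp4* (0.776 and 0.695 FPKM) were low in both. *Spink1* in JGESO had 11.4 FPKM without and 114 FPKM with BMP4. In MEFs with SALL4 alone and without BMP4, the leading genes were at a higher level with SALL4-delN12 than with SALL4-WT at the later days. On day 1 the median difference was 0.00, with 1 gene higher and 1 lower (3.48% and 4.67% of all genes), and on day 5 it was 0.05, with 2 and 2 (3.92% and 4.61%). Many of the leading genes were at or near 0 FPKM with both forms on day 1, such as *Hkdc1* (0.166 FPKM with SALL4-delN12 and 0.0808 with SALL4-WT). By day 9 it was 0.61, with 8 higher and 1 lower (5.17% and 5.05%), and on day 11 1.52, with 19 and 1 (5.47% and 5.81%). *Gata4* at day 11 had 29.3 FPKM with SALL4-delN12 and 1.51 FPKM with SALL4-WT, *Pth1r* 45.0 and 3.76 FPKM and *Sox17* 16.2 and 0.224 FPKM. *Cubn* and *Apom* were low with both forms, with 0.383 and 0.183 FPKM for *Cubn* and *Apom* listed at 0 in both.

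Cut&Tag peaks show where SALL4 and the active mark H3K27ac lay at day 6 in MEFs with SALL4 alone, cells that are not ParE cells. Peaks within 2 kb of a gene start were counted for the leading genes beside all genes compared. The leading genes were chosen for low levels outside ParE cells and the other genes were not, so nothing is read from the difference of the shares. SALL4-WT had one at 6 of 30, beside 76.4% of the 12532 genes compared that match 1 GENCODE entry, and SALL4-delN12 at 2 of 30 (6.67%), beside 58.2%. H3K27ac had a peak at 2 of 30 (6.67%) with SALL4-WT, beside 75.7%, and at 9 of 30 with SALL4-delN12, beside 84.8%. The genes with a SALL4-WT peak were *Gata4*, *Pth1r*, *Habp2*, *Lect2*, *Gc* and *B4galnt2*. *Gata4* (ENSMUSG00000021944, chr14:63198922-63271692, minus strand, GRCm38) had 2 SALL4-WT peaks with a top score of 86.81, none of SALL4-delN12 and none of H3K27ac in either form. *Habp2*, *Lect2* and *Gc*, whose promoters are shown above, had SALL4-WT peaks with top scores of 165.95, 237.83 and 213.33, and all of them had an H3K27ac peak with SALL4-delN12, *Habp2* and *Lect2* also with SALL4-WT. *Dab2*, *Cubn*, *Sox17* and *Pitx1* had no peak within 2 kb of their GENCODE gene start in any of the 4 lists. Only 1 start per gene was searched, so peaks at other starts were not counted. *Dab2*, for example, has a further promoter entry at chr15:6386498-6386797. A gene without a peak here is thus not shown to have an unmarked promoter.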

How the data were processed

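Single cells of JGES day 7 with and without BMP4 were sequenced by 10x, and the deposited table holds UMI counts per gene and cell, which the authors aligned with STAR, filtered and annotated with Scanpy (mm10). Of its 30769 columns, 10749 match no sample used here and were not used. Bulk values are FPKM made by the authors with HISAT2 2.2.1 and StringTie 2.2.1, in separate tables of 17 and 8 libraries, and log2(FPKM + 1) was compared within a table. Cut&Tag peaks carry the score that the authors' caller (MACS 1.4.2, after Bowtie2 2.4.5) gave them, from replicates merged before calling. The tools are taken from the submitters' processing notes, and ATAC-seq was not used here.

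Counts were summed per annotation and sample (Python 3.11.15, scipy 1.17.1). Genes with at least 1 CPM in the mean of the 4 annotations were compared, past a fold of 2, against a floor of 3 UMIs, with no fold where both sums were below it. ParE cells were clustered from 2000 variable genes, 20 components and 15 neighbours (scanpy 1.11.5, seed 1). The scripts were tested on simulated data. No doublet caller was run, and leaving out the deepest 6% of cells was an alternative. Named were the 30 genes with the largest ratio over the highest other annotation (a UMI in at least 10% of ParE cells), the 10 lowest against the lowest other (at least 50 CPM), the 10 largest differences in each direction with BMP4 (at least 50 CPM), 5 genes per group (a UMI in at least 25% of its cells) and genes of the lists as needed. Gene positions are from GENCODE (GRCm38). The members and lists were chosen with earlier results of these data known. Some genes that these rules name are not reported here.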

Additional observations from a re-analysis of the deposited data

Results flagged for a closer look

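The 15 S phase genes had a median log2 ratio of BMP4+ over BMP4− of 1.20 in ParE cells and −0.25 in intermediate cells, and 1.25 in endothelial cells. The 15 G2 and M phase genes had medians of 1.09 in ParE and −0.60 in intermediate cells, and 0.81 in endothelial cells. The 6 placenta-like markers had medians of −0.32 in ParE and 1.24 in intermediate cells, and 1.19 in endothelial cells. Each of these was picked out because ParE and intermediate cells lie on opposite sides of 0 between the same pair of samples, and the difference was not tested. In bulk JGES libraries, the 30 leading genes had a median log2 difference between BMP4+ and BMP4− of −0.34 at day 5 and 0.93 at day 7. It was picked out because the sign turned between these days, and the difference was not tested, with 1 library per day and condition.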

How the results depend on the processing

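No paired analysis was possible because the groups compared share fewer than 2 replicate numbers in the labels (1 library per condition and day), and days of a time course are not replicates of each other. Of 255 values recomputed, 208 stayed within 1.5-fold or within their counting interval, and 47 moved, of which 1, the median of the pluripotency genes, changed sign. The cause of the moves was not tested, except that a limit of 5 CPM tests fewer genes, no limit tests more, and a fold of 4 is stricter. The share of the sample was 22.0% for cells with at least 3 markers and 19.3% with at least 4. Against all other cells, higher genes numbered 1760 without a limit, 285 past a fold of 4 and 670 with annotations weighted equally, and lower genes 1224 at 5 CPM, 4546 without a limit and 1292 past a fold of 4. Under the same 3 settings (5 CPM, no limit, a fold of 4), 802, 2097 and 482 genes were higher and 604, 2194 and 541 lower than in endothelial cells, and 786, 2312 and 509 were lower than in placenta-like and 1286, 4625 and 1274 lower than in intermediate cells. Higher than in placenta-like cells were 642 genes at 5 CPM and 389 past a fold of 4, and higher than in intermediate cells 461 past a fold of 4. Of 22 list medians, the endoderm transcription factors gave 3.01 without a limit, the visceral genes 0.84 at 5 CPM, the pluripotency genes 1.54 at 5 CPM and −0.28 without a limit, and the Nodal genes −0.50 at 5 CPM. Without ParE cells that carry markers of another annotation, mesenchymal genes gave −3.72, endothelial markers −3.55 and intermediate markers −4.45. The cells were left out for such markers, so these moves restate the choice. With BMP4 against without, median-ratio scaling gave 1406 higher and 1224 lower genes, a fold of 4 gave 420 and 175, and 300 were lower at 5 CPM. Chosen after seeing the data, a limit of 10 CPM gave 248 lower genes, and ratios less those of intermediate cells 1353 higher and 2127 lower. Clustering at resolution 1 gave 10 groups. With a peak score of at least 100, 13.3% of leading genes had an H3K27ac peak with SALL4-delN12 and 3.33% with SALL4-WT. A SALL4 peak was then at 10% of them with SALL4-WT and at 6.67% with SALL4-delN12. Without thinning, the shares of ParE cells with a UMI were 77.9% for *Gata4*, 93.6% for *Sox17*, 92.2% for *Pth1r*, 88.2% for *Dab2*, 59.7% for *Cubn* and 74.9% for *Pitx1*. Depth limits the BMP4− ParE cells most: 142 cells with 1890270 UMIs, in which 1 UMI is worth 0.529 CPM.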
